A study of Mus musculus with 28 samples.

Results

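The 32 genes described here mark the vessels of the brain and the barrier they form, and were taken by symbol from the 52636 genes counted in the deposited tables. Of these, 21 mark endothelial cells, the inner lining of the vessel, and 11 mark mural cells, the pericytes and smooth muscle cells wrapped around it. All 32 had at least 1 count in some library and all passed the filter on low counts, which left 19171 genes for testing. The tissue was the ventromedial prefrontal cortex (vmPFC), a region that takes part in the control of emotion, and its total RNA was sequenced from 28 female mice, 7 in each of 4 groups. The first group was labelled Slit1 knockdown (KD) with a virus and stressed for 3 days by a procedure abbreviated sCVS, the second was KD-labelled without stress, the third received a control virus carrying LacZ and the same stress, and the fourth received LacZ without stress. All mice therefore carried a virus, and the strain, the age and the cells that the virus reached were not given in the labels. The protocols state that tissue was punched from slices of 1 mm and that viral placement was checked by fluorescence.

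The targeted gene was read first. Slit1 (ENSMUSG00000025020) averaged 18.2 ± 9.80 CPM (the usual depth-scaled count, here on the TMM library size, SD, n = 7) in KD-labelled stressed and 25.9 ± 17.5 in KD-labelled unstressed libraries, against 19.8 ± 10.2 in LacZ stressed and 24.4 ± 16.1 in LacZ unstressed libraries. Its log2 fold change over both stress states was -0.02 ± 0.30 (SE) with an adjusted p of 1.00 in edgeR's quasi-likelihood test. A lower Slit1 level was not detected under the KD label, and the groups are called KD-labelled throughout. Total counts ran from 30.6 to 44.3 M per library. Markers of excitatory neurons summed to between 265 and 1576 CPM and were found in every library of this cortical tissue. One KD-labelled stressed library (replicate 2) stood apart with 709 CPM of summed bone markers, against at most 10.95 in any other, and with 1950 CPM of fibroblast and meningeal markers, against at most 184 in any other. None of the 32 vascular genes had its highest or lowest level in that library, nor in LacZ stressed replicate 4, which held the lowest T cell marker sum, 11.96 CPM.

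Brain endothelial cells are joined by tight junctions that close the gaps between them, so that most solutes must cross the cells through transporters. This is the blood-brain barrier. Pericytes share the basement membrane of the capillary and help to keep the barrier closed, while smooth muscle cells ring the arterioles and set their width. Cldn5 is the main claudin of this tight junction, Slc2a1 the glucose transporter, Slco1a4 a carrier of organic anions and Rgs5 a regulator of G protein signalling that marks pericytes. In whole tissue, fewer vessel cells and less RNA per cell cannot be told apart.

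Promoters are shown for 4 members that turned out to move in opposite ways between libraries: Cldn5 and Slc2a1 on one side, Slco1a4 and Rgs5 on the other. RefSeq held promoter windows for 22 of the 32 members on GRCm38.p6. The 150 bases just before the transcription start are given 5′ to 3′ on the gene's strand, with matches to the SOX core ACAAT on either strand in capitals. They lie at chr16:18776697-18776846 on the plus strand for Cldn5, chr4:119108595-119108744 on the plus strand for Slc2a1, chr6:141856221-141856370 on the minus strand for Slco1a4 and chr1:169655351-169655500 on the plus strand for Rgs5.
Cldn5: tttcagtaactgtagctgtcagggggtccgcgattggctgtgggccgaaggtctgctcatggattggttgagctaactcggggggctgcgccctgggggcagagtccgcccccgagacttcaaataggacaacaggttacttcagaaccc
Slc2a1: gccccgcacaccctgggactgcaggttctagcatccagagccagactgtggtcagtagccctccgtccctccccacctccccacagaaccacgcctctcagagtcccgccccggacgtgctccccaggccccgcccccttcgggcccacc
Slco1a4: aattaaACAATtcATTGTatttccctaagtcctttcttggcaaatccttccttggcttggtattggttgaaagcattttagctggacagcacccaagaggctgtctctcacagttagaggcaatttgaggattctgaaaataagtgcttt
Rgs5: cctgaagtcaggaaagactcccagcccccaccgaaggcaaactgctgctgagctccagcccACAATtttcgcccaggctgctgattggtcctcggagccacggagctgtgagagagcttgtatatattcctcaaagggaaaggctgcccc
The Slc2a1 stretch held 70.7% G and C, that of Cldn5 58.7%, that of Rgs5 57.3% and that of Slco1a4 39.3%. Over the 250 bases before the start, the SOX core was found in 3 members, Rgs5, Slco1a4 and Tek, and in 27.7% of all 32851 windows. The ETS core CCGGAA, on either strand, was found in Kdr and Ocln and in 12.03% of all windows, and the TATA box core TATAAA in Flt1, Ly6c1 and Vtn and in 12.4%. No member window held an exact match to the CArG box, the motif of serum response factor, which 1.47% of all windows did. Inexact boxes were not sought, and the smooth muscle genes Tagln and Myh11 had no window. At that share, no match among so few windows says little about these genes. No match of one motif overlapped a match of another, while the matches to TATAAA in Vtn overlap each other. A match describes letters only, and no binding was measured.

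Levels are compared between genes only per kb of the counted span, which holds introns as well as exons. On that scale the median over libraries was highest for Itm2a, at 4.47 CPM per kb, followed by Ly6c1 at 3.41, the pericyte gene Rgs5 at 2.84 and the transporter Slco1a4 at 2.31. The lowest were 3 smooth muscle genes, Des at 0.0215, Myh11 at 0.0268 and Tagln at 0.0291 CPM per kb. The endothelial genes had a median of 0.282 CPM per kb and the mural genes one of 0.0756. Exons made up 3.37% of the Tjp1 span and 100% of that of Cldn5, a gene of a single exon, so reads from introns weigh differently on each. Of the spans, 58.0% of Tagln, 45.6% of Notch3 and 17.1% of Slc2a1 lie over another gene, where fragments were counted for neither. Ly6c1 and Abcb1a have close paralogs and their counts are uncertain for that reason.

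The barrier genes differed widely in how much they varied from animal to animal. Cldn5 ran from 1 to 434 counts, or 0.0527 to 9.07 CPM, and Vtn, which encodes the matrix protein vitronectin made by pericytes, spanned 51.6-fold. Both were lowest in KD-labelled unstressed replicate 7, and without that library Cldn5 spanned 56.3-fold and Vtn 21.7-fold. At the other end, Abcc9, a subunit of a potassium channel of pericytes, varied 1.76-fold, Tjp1, a scaffold of tight junctions, 1.78-fold and Ocln, a tight junction protein, 1.95-fold. The median SD of log2 CPM over the 28 libraries was 0.68 for the 32 genes and 0.55 for all tested genes. Within the tight junction the SD was 1.78 for Cldn5, 0.24 for Ocln and 0.21 for Tjp1.

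Their order over libraries followed base composition. For each library, the log2 CPM of every gene, less its mean, was regressed on the GC content of its longest transcript, and the slope is called the GC slope, in log2 units per 10 percentage points of GC. It ran from -1.17 in KD-labelled unstressed replicate 7 to 1.21 in LacZ unstressed replicate 1, and its absolute correlation with the first principal component, which held 58.8% of the variance of all tested genes, was 0.996. Cldn5 (60.5% GC) had r = 0.98 with the slope over 28 libraries, Vtn (55.3%) 0.98, Pdgfrb (54.9%), the receptor that recruits pericytes, 0.96 and the receptor Tie1 (57.6%) 0.92. Genes poor in G and C ran the other way. Rgs5 (41.1%) had r = -0.90, Slco1a4 (40.3%) -0.83, the angiopoietin receptor Tek (47.1%) -0.80 and Itm2a (41.7%) -0.74. The VEGF receptor Flt1 (50.5%) and Abcc9 (46.2%) had r = -0.02 and -0.03, so they hardly moved with it.

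**Figure D1:**
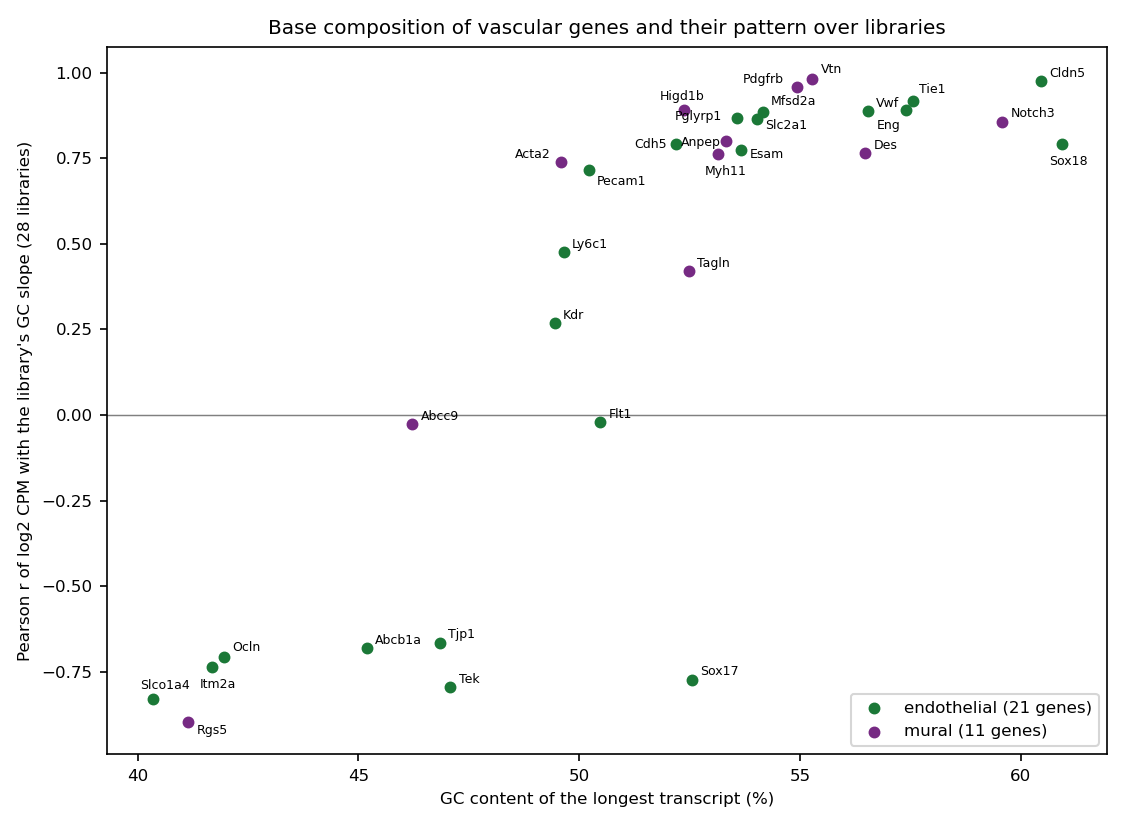
Each point is a vascular gene, with the GC content of its longest transcript on the x axis in percent and the Pearson correlation of its log2 CPM with the GC slope over 28 libraries on the y axis. Genes over 52% GC lie above 0 apart from Sox17 (-0.77), and the 8 genes under 49% lie below 0.

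Of the 19 members over 52% GC, 18 had a positive r, the exception being Sox17 (52.6%), a transcription factor of arterial endothelium, at -0.77. All 8 members under 49% GC had a negative r, and of the 5 between these bounds 4 were positive. Among all tested genes r was positive for 91.5% of those over 52%, for 20.03% of those under 49% and for 73.1% of those between. Over the 32 genes, GC content and r correlated at 0.83, against 0.75 over the 19120 tested genes with a known GC content, a description across genes that share all libraries. In the 22 members with a promoter window, r went with transcript GC at 0.91 and with promoter GC at 0.34. The GC slope was itself fitted on transcript GC, which favours transcript GC by construction. These values therefore do not test transcript against promoter composition.

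**Figure D2:**
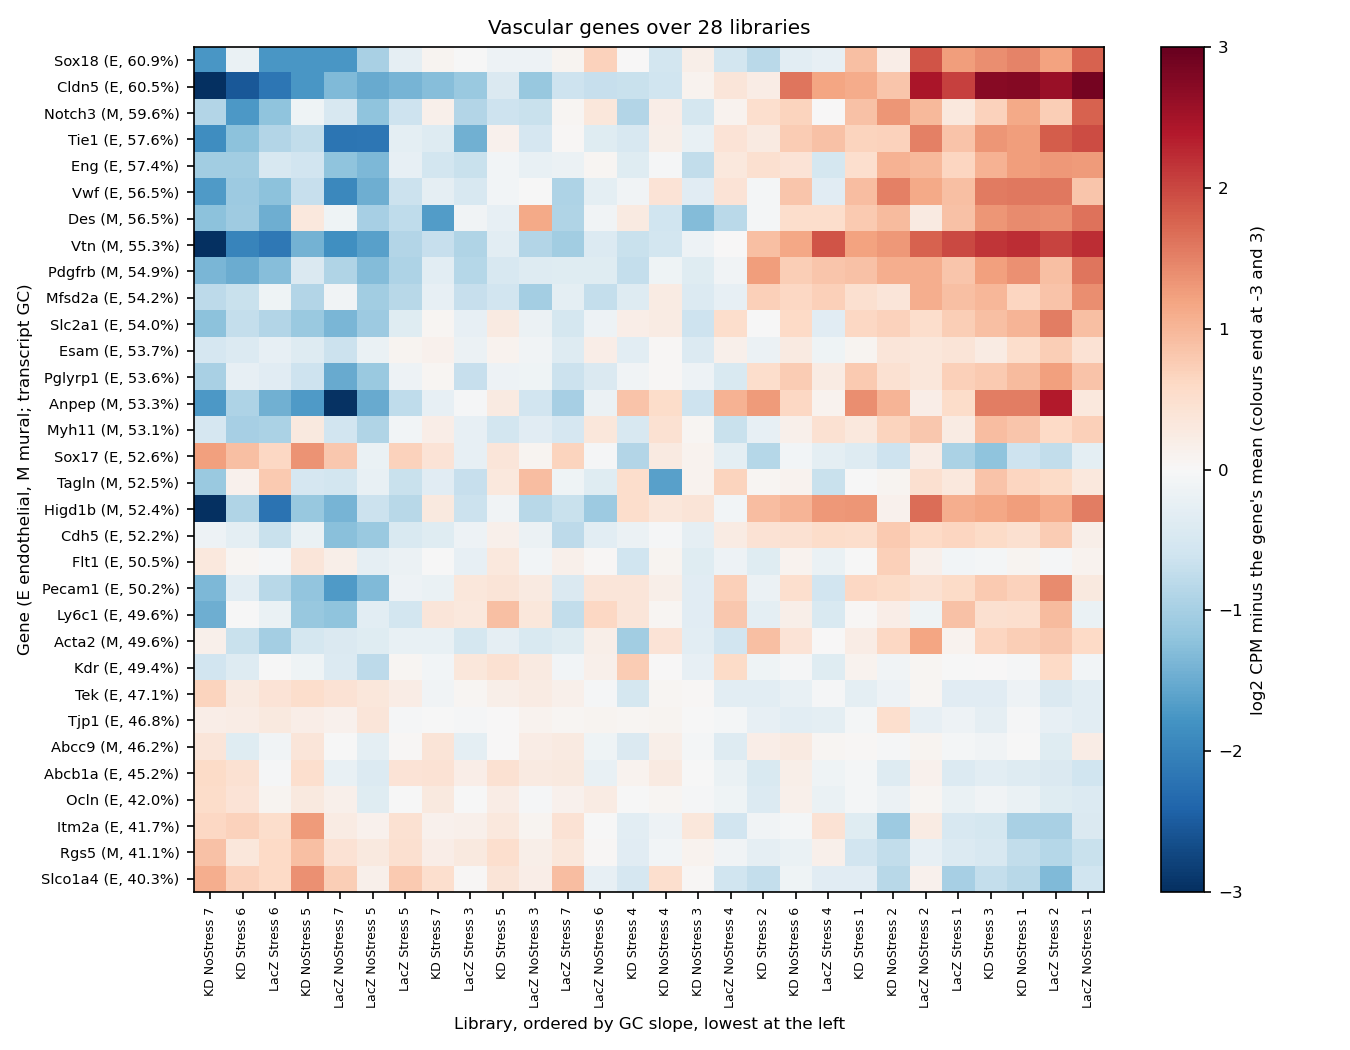
Rows are the 32 genes from high to low transcript GC and columns the 28 libraries from low to high GC slope, and colour gives log2 CPM minus the gene's mean. Cldn5 and Vtn pass from blue to red from left to right, while Slco1a4, Rgs5 and Itm2a at the bottom pass from red to blue.

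The GC slopes left their widest gap between 0.07 and 0.45, with 11 libraries above it and 17 below. The 11 comprised 3 KD-labelled stressed, 3 KD-labelled unstressed, 3 LacZ stressed and 2 LacZ unstressed libraries, so that each group held some of both. By place in accession order within a group, all 8 libraries in places 1 and 2 were among the 11, as were 3 of the 20 in places 3 to 7, and the 8 in places 5 and 7 had slopes from -1.17 to -0.30. The labels do not tie this order to a preparation or a lane, and its part in the vascular levels was not tested. Mean log2 CPM of Cldn5 was 2.16 in the 11 libraries and -0.89 in the 17, a gap of 3.05, and that of Slco1a4 was 6.22 in the 11 and 7.22 in the 17. Within the sets, 30 of the 32 genes kept the sign of their r with the slope in both. The exceptions were Cdh5, with -0.31 in the 11 and 0.38 in the 17, and Flt1, with 0.09 in the 11 and -0.46 in the 17. Mitochondrial transcripts took 2.30% to 14.2% of the counts and their share ran against the slope (r = -0.84). What sets the GC slope was not tested.

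Cldn5, Rgs5 and Acta2 were the index genes picked for endothelium, pericytes and smooth muscle in 9 relations over the 28 libraries. Other genes of their lists did not follow them. With group means removed, Rgs5 had r = -0.82 with Pdgfrb, -0.86 with Vtn, -0.88 with Anpep, -0.81 with Higd1b, -0.79 with Notch3 and 0.28 with Abcc9. With endothelial genes it ran from -0.89 for Slc2a1 to 0.91 for Itm2a. The relations below are therefore between single genes and not between cell types. As measured, Rgs5 fell where Cldn5 rose (Pearson r = -0.85, Spearman rho = -0.85, permutation p = 1e-05 for both, the smallest the 100000 resamples can give, adjusted p = 3e-05), and r was -0.82 without the 2 libraries farthest from the median of Cldn5. Of all tested genes, 54.1% had an absolute r over 0.7 with the GC slope, as did 25 of the 32 members. In likeness to Cldn5, group means removed, Rgs5 held place 16506 of 19170, so many genes outside the list ran against Cldn5 more strongly. The small permutation p is therefore not particular to vessel genes. The sets of 11 and 17 were cut on the GC slope after the data were seen, and the slope itself went with Cldn5 and Rgs5 (r = 0.98 and -0.90). The sets therefore narrow the range of both genes, and the values within them do not test whether a relation holds. Within the 17 libraries of lower slope r was -0.69 (rho = -0.65, permutation p = 0.00206, adjusted p = 0.00927 over 18 such tests), and within the 11 of higher slope it was -0.39 (rho = -0.38, permutation p = 0.231, adjusted p = 0.463). Acta2, the actin of smooth muscle, rose with Cldn5 over all libraries (r = 0.70, rho = 0.70, permutation p = 5e-05, adjusted p = 0.00011). Within the sets r was 0.24 in the 11 libraries (permutation p = 0.483) and 0.01 in the 17 (permutation p = 0.969), and without the 2 libraries farthest from the median of Cldn5 it was 0.66 over the rest. The mitochondrial share rose with Rgs5 in all libraries (r = 0.89, rho = 0.92, permutation p = 1e-05, adjusted p = 3e-05), in the 11 (r = 0.90, permutation p = 0.00022) and in the 17 (r = 0.77, permutation p = 0.00016), and was 0.88 without the 2 libraries farthest from its own median. It ran against Cldn5 over all libraries (r = -0.82, rho = -0.83, permutation p = 1e-05, adjusted p = 3e-05) and was -0.31 within the 11. Within the 17 the measures differed: r was -0.71 (adjusted p = 0.00927) and rho -0.55 (permutation p = 0.0244, adjusted p = 0.0879). The other 5 relations had absolute Pearson r from 0.46 to 0.64 over all libraries and from 0.02 to 0.57 within the sets.

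The genes whose pattern was most like that of Cldn5, group means removed, were none of the 32. The first 8 were Fkbp2, Rps14, Asna1, Lman2, Mfsd3, Stoml2, Pgam1 and Rpl7a, with r from 0.984 to 0.988 over 28 libraries, and the best placed of the 32, Vtn, came 67th. Among those most like Rgs5 were 1700020I14Rik, Tmem184c, Ubxn2a, Armc1, Zfp770, Ankrd29 and Rbbp9 (r from 0.967 to 0.974), and none of the 32 was among its first 100. Acta2 was most like Mbp, the myelin basic protein, then Unc5b, Arhgef10, Sept4, Ppp1r14a, Pim3, Arhgef19 and Kremen1 (r from 0.859 to 0.887), and Pdgfrb came 92nd. With the GC slope removed as well, Itm2a was the 5th gene in likeness to Rgs5 (r = 0.84), and none of the 32 was among the first 100 of Cldn5 or Acta2.

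Endothelial and mural genes were set against each other as means of log2 CPM over each list, an average in which every gene counts alike. The endothelial mean was 3.28 ± 0.26 (SD, n = 7) in KD-labelled stressed, 3.26 ± 0.36 in KD-labelled unstressed, 3.25 ± 0.33 in LacZ stressed and 3.18 ± 0.49 in LacZ unstressed libraries. The mural mean was 1.31 ± 0.61 in KD-labelled stressed, 1.27 ± 0.70 in KD-labelled unstressed, 1.17 ± 0.66 in LacZ stressed and 1.19 ± 0.68 in LacZ unstressed libraries. The group means differed by less than the spread within any group. The endothelial mean exceeded the mural mean by 1.97 ± 0.44 in KD-labelled stressed, 1.99 ± 0.34 in KD-labelled unstressed, 2.08 ± 0.38 in LacZ stressed and 1.99 ± 0.23 in LacZ unstressed libraries. Over libraries this excess ran from 1.40 to 2.62 and went with the GC slope at r = -0.90 over all 28, -0.12 within the 11 libraries of higher slope and -0.69 within the 17. The endothelial and mural means themselves correlated at 0.91 over all libraries, at 0.78 in the 11 and at 0.83 in the 17, and at 0.55 once the slope was removed. The bone-rich library, KD-labelled stressed replicate 2, had an endothelial mean of 3.13 beside a mural mean of 1.73, and LacZ stressed replicate 4 had 3.22 beside 1.66, both low in endothelial genes for their mural level.

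**Figure D3:**
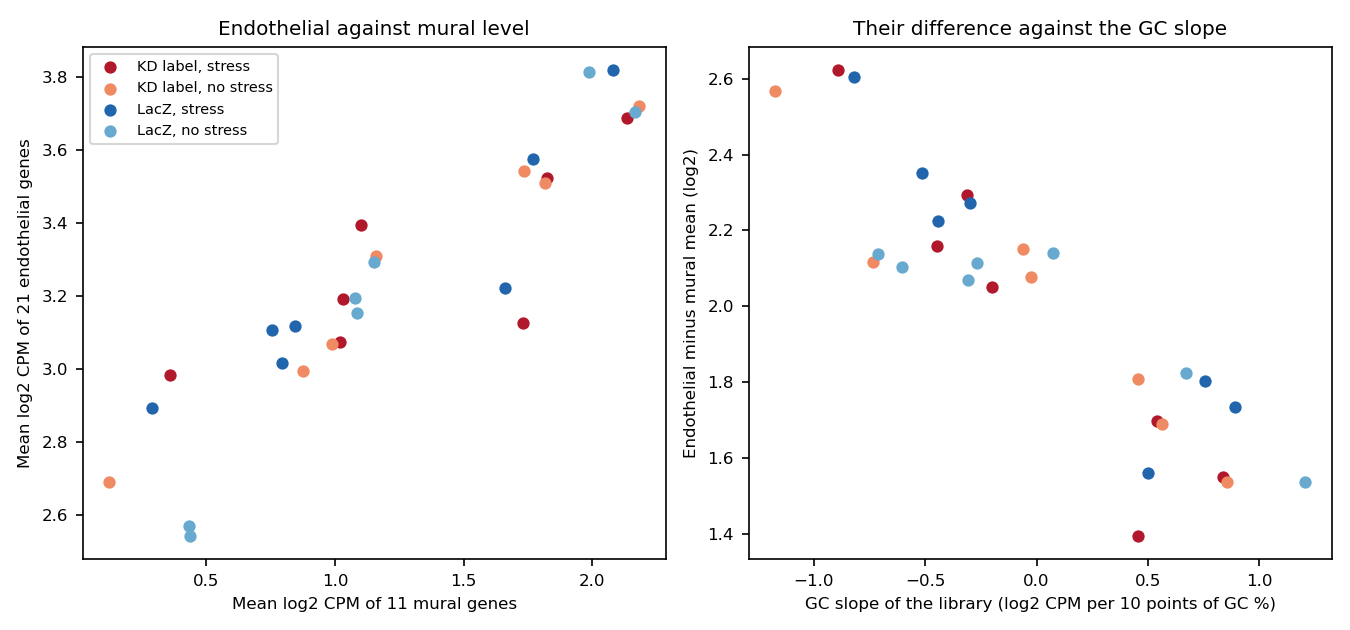
In the left panel each point is a library, with the mean log2 CPM of the 11 mural genes on the x axis and of the 21 endothelial genes on the y axis, and in the right panel the difference of the means is drawn against the GC slope. The 4 groups, in 4 colours, are mixed along both trends, 11 libraries lie apart at higher slopes, and those with mural means of 1.66 and 1.73 lie under the trend on the left.

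With group means and the GC slope removed from each gene, a set of members still went together. Pecam1, an adhesion molecule of endothelium and leukocytes, correlated over 28 libraries at 0.89 with Slc2a1, 0.87 with Vwf (von Willebrand factor), 0.82 with Ly6c1, 0.81 with Anpep, an aminopeptidase found on pericytes and myeloid cells, and 0.80 with the VEGF receptor Kdr. Separate pairs were Itm2a with Rgs5 at 0.84, Sox17 with Slco1a4 at 0.84 and the pericyte genes Pdgfrb and Abcc9 at 0.72. Other pairs ran in opposite ways, at -0.59 for Itm2a with Anpep and with Slc2a1 and -0.58 for Tek with Anpep. Over all pairs the median was 0.22 among the 210 endothelial pairs, 0.10 among the 231 mixed pairs and 0.01 among the 55 mural pairs, so the mural pairs were centred near 0.

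Markers of leukocytes moved with the first set, and whether such cells lay in vessels or in the tissue was not measured. On the same residuals, the summed level of 6 monocyte and neutrophil markers (Ly6c2, Ccr2, S100a8, S100a9, Lcn2 and Ly6g) correlated at 0.84 with Pecam1, 0.83 with Slc2a1, 0.71 with Ly6c1 and 0.66 with both Kdr and Vwf. The value for Ly6c1 is uncertain, since its paralog Ly6c2 is in the sum. The sum of 6 T cell markers (Cd3e, Cd3g, Cd8a, Gzmb, Trbc2 and Cd4) correlated at 0.78 with Slc2a1 and 0.75 with Pecam1, and markers of excitatory neurons at -0.62 with Slc2a1 and -0.61 with Pecam1. For the monocyte and neutrophil list r was over 0.5 for 8 of the 32 members and under -0.5 for 3, Itm2a, Tek and Pdgfrb. The share of all tested genes past these bounds is not given here, so the counts say nothing particular to the vascular genes. All 6 markers of each leukocyte list were detected. The monocyte and neutrophil sum ran from 59.4 to 263 CPM in KD-labelled stressed, 28.2 to 167 in KD-labelled unstressed, 7.45 to 243 in LacZ stressed and 39.4 to 219 in LacZ unstressed libraries, and the T cell sum from 49.99 to 210 CPM in KD-labelled stressed, 15.1 to 151 in KD-labelled unstressed, 11.96 to 184 in LacZ stressed and 20.6 to 132 in LacZ unstressed libraries. The part of these cells in the vascular levels was not tested. Acta2, Pdgfrb and Notch3 went instead with oligodendrocyte markers (r = 0.64, 0.56 and 0.54), whose part was not tested either.

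Among the endothelial identity genes, Pecam1 was at 12.7, 20.3 and 27.3 CPM (lowest, median and highest of 7, as in the values that follow) in KD-labelled stressed, 6.16, 18 and 25.4 in KD-labelled unstressed, 8.84, 14.3 and 42.2 in LacZ stressed and 4.81, 19.4 and 26.2 in LacZ unstressed libraries. All groups overlapped, and the highest value came from LacZ stressed replicate 2. That library was highest of all 28 in 8 members, Pecam1, Esam, Eng, Vwf, Ly6c1, Pglyrp1, Slc2a1 and Anpep, and LacZ unstressed replicate 7 was lowest in 8, Pecam1, Cdh5, Esam, Vwf, Pglyrp1, Tie1, Slc2a1 and Anpep. Cdh5, the cadherin of endothelial junctions, had a median of 6.23 CPM in KD-labelled stressed, 5.51 in KD-labelled unstressed, 5.02 in LacZ stressed and 5.004 in LacZ unstressed libraries. Group medians ran from 6.73 to 12.7 CPM for Vwf and from 3.59 to 4.40 CPM for Eng, a co-receptor of the TGF-beta family, lowest in LacZ stressed libraries for both. Esam, another junctional adhesion protein, was steadier, with means of 5.83 ± 0.99 and 6.14 ± 1.77 CPM in KD-labelled stressed and unstressed libraries against 6.34 ± 1.89 and 6.22 ± 1.47 CPM in LacZ stressed and unstressed ones. Ly6c1, Pglyrp1 and Itm2a, genes enriched in brain endothelium, had group medians of 13.8 to 20.4, 1.56 to 2.23 and 24.2 to 35.6 CPM.

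Of the receptors, Flt1 was at 30.7, 46.2 and 57.6 CPM in KD-labelled stressed, 36.1, 50.02 and 76.2 in KD-labelled unstressed, 39.0, 43.7 and 51.6 in LacZ stressed and 38.2, 47.7 and 52.2 in LacZ unstressed libraries. Kdr, the main signalling receptor for VEGF, had group medians from 15.9 to 17.8 CPM. Tek had a median of 26.4 CPM in KD-labelled stressed, 33.1 in KD-labelled unstressed, 33.5 in LacZ stressed and 33.8 in LacZ unstressed libraries. Tie1, the partner of Tek, reached at most 5.14 CPM in any library. The levels of these 4 receptors overlapped between all groups. Sox17 had medians of 1.80 to 2.54 CPM, and Sox18, a related factor, had 0 to 25 counts per library with 4 libraries at 0.

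Cldn5 was at 0.161, 0.864 and 8.12 CPM in KD-labelled stressed, 0.0527, 1.27 and 8.24 in KD-labelled unstressed, 0.223, 0.749 and 7.39 in LacZ stressed and 0.386, 0.717 and 9.07 in LacZ unstressed libraries. All groups overlapped. Ocln, by contrast, was at 8.21, 10.8 and 14.3 CPM in KD-labelled stressed, 9.50, 11.2 and 16.02 in KD-labelled unstressed, 8.43, 10.7 and 11.8 in LacZ stressed and 8.19, 10.6 and 12.9 in LacZ unstressed libraries. Tjp1, also made outside vessels, averaged 313 ± 36.8 and 345 ± 61.7 CPM in KD-labelled stressed and unstressed libraries, against 311 ± 43.8 and 327 ± 53.6 CPM in LacZ stressed and unstressed ones.

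Slco1a4 was at 68.8, 89.9 and 182 CPM in KD-labelled stressed, 63.4, 117 and 293 in KD-labelled unstressed, 44.9, 117 and 215 in LacZ stressed and 75.3, 124 and 190 in LacZ unstressed libraries. Slc2a1 was at 8.38, 15.9 and 25.97 CPM in KD-labelled stressed, 5.90, 16.6 and 28.2 in KD-labelled unstressed, 7.47, 11.03 and 40.4 in LacZ stressed and 5.32, 12.6 and 25.9 in LacZ unstressed libraries. The highest Slc2a1 level and the lowest Slco1a4 level came from the same library, LacZ stressed replicate 2. Abcb1a, the efflux pump P-glycoprotein, had a median of 47.8 CPM in KD-labelled stressed, 49.8 in KD-labelled unstressed, 43.1 in LacZ stressed and 38.2 in LacZ unstressed libraries. Mfsd2a, a lipid carrier that keeps transcytosis low, had group medians from 3.07 to 4.38 CPM, and the groups overlapped for both.

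**Figure D4:**
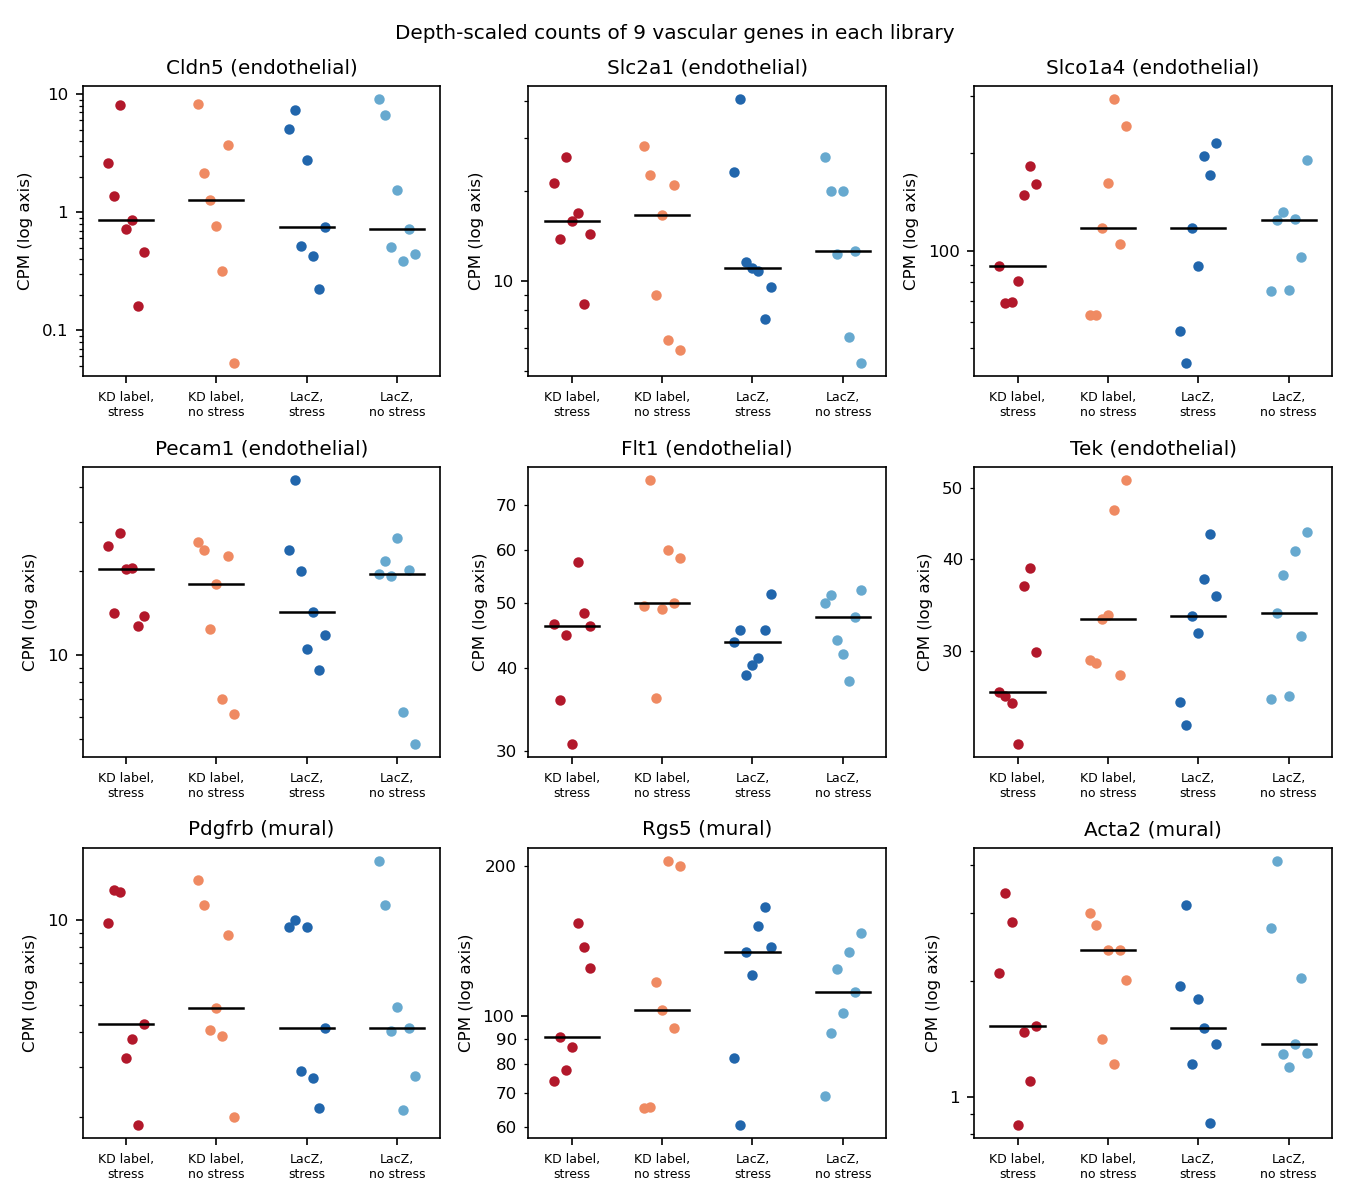
Each point is the CPM of 1 library on a log axis, the line is the median of the 7 libraries, and the 4 groups run from KD-labelled stressed on the left to LacZ unstressed on the right for 9 genes. The groups overlap in every panel, and Cldn5 spans 0.0527 to 9.07 CPM.

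The pericyte gene Rgs5 was at 74.0, 91.0 and 154 CPM in KD-labelled stressed, 65.4, 103 and 205 in KD-labelled unstressed, 60.4, 135 and 166 in LacZ stressed and 69.3, 112 and 147 in LacZ unstressed libraries. Pdgfrb was at 1.87, 4.26 and 12.7 CPM in KD-labelled stressed, 2.002, 4.86 and 13.9 in KD-labelled unstressed, 2.16, 4.13 and 9.98 in LacZ stressed and 2.11, 4.13 and 16.1 in LacZ unstressed libraries. Libraries high in Pdgfrb were low in Rgs5 (r = -0.82 with group means removed), while with the GC slope removed too r was 0.46. Group medians ran from 8.29 to 9.72 CPM for Abcc9, from 2.50 to 4.19 for Vtn, from 1.95 to 4.01 for Anpep and from 1.61 to 1.83 for Notch3, a receptor of mural cells. Higd1b, a gene enriched in pericytes, had at most 77 counts in a library. Of the smooth muscle genes, Acta2 was at 0.843, 1.52 and 3.38 CPM in KD-labelled stressed, 1.21, 2.40 and 3.00 in KD-labelled unstressed, 0.855, 1.51 and 3.13 in LacZ stressed and 1.19, 1.37 and 4.08 in LacZ unstressed libraries. Myh11, the myosin heavy chain of smooth muscle, had medians of 1.91 to 2.99 CPM. Tagln and Des, an actin-binding protein and an intermediate filament protein, had at most 18 and 33 counts, too few for more than a coarse level.

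No vascular gene was called in any of the 7 comparisons. At an adjusted p under 0.05 edgeR's quasi-likelihood test called 0 of the 19171 genes (0%) in each, and DESeq2 called 0 as well. The shares at an unadjusted p under 0.05 in edgeR are given with each comparison. The 2 groups overlapped for all 32 genes in each of the 4 comparisons between groups. Overlap was not counted over all tested genes, so this says nothing particular to the vascular ones. Since no gene was called, every median and count that follows is a description.

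For KD-labelled against LacZ libraries, 21 of the 32 genes were above 0 and 11 below without stress, with a median log2 fold change of 0.09, against -0.01 over all tested genes. With stress 19 were above 0 and 13 below, with a median of 0.02, against -0.03 over all. At an unadjusted p under 0.05 stood 0 of the 32 genes in either state, with 0.897% of all genes unstressed and 0.824% stressed. Without stress the values ran from -0.75 ± 0.72 (SE) for Sox18 to 0.52 ± 0.61 for Anpep, and with stress from -0.31 ± 0.80 for Vtn to 0.29 ± 0.62 for Higd1b. Over both states the list had 19 genes above 0 and 13 below (median 0.05, against -0.02 over all), 0 at an unadjusted p under 0.05 against 1.52% of all genes, and the smallest p was that of Abcb1a (0.21 ± 0.13, unadjusted p = 0.127). Cldn5 had -0.24 ± 0.66 and Rgs5 -0.04 ± 0.19. The median was 0.04 for the 21 endothelial and 0.11 for the 11 mural genes. Without the bone-rich library and LacZ stressed replicate 4, 18 genes were above 0 and 14 below. Beside this, 8 of 8 fibroblast and meningeal markers were above 0 (median 0.68), with 7 of 8 without stress (median 0.35) and 8 of 8 with stress (median 1.01), where the bone-rich library belongs. So were 3 of 3 tested bone markers (median 2.87), 5 of 5 perivascular macrophage markers (median 0.41) and 6 of 6 T cell markers (median 0.39). The part of all these in the vascular values was not tested.

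For stressed against unstressed libraries, 16 genes were above 0 and 16 below in LacZ mice, with a median of -0.002, and 10 above and 22 below in KD-labelled mice, with a median of -0.07. Over all tested genes the medians were -0.01 in both. In LacZ mice the values ran from -0.54 ± 0.46 for Notch3 to 0.67 ± 0.61 for Anpep, which had -0.16 without LacZ stressed replicate 2. Flt1 in KD-labelled mice, at 44.2 ± 8.71 CPM stressed and 54.1 ± 12.4 CPM unstressed, was the 1 member at an unadjusted p under 0.05 (-0.29 ± 0.14, unadjusted p = 0.0444, adjusted p = 1.00), where 1.79% of all genes were. In LacZ mice 0 members and 0.402% of all genes were. Over both viruses 13 genes were above 0 and 19 below (median -0.03, against -0.01 over all), 0 were at an unadjusted p under 0.05 against 2.21% of all genes, and Flt1 had -0.19 ± 0.10. Notch3 was lowest at -0.46 ± 0.32 and Anpep highest at 0.54 ± 0.43. The 3 tight junction genes were all below 0, at -0.19 ± 0.66 for Cldn5, -0.11 ± 0.09 for Tjp1 and -0.03 ± 0.11 for Ocln. Without the bone-rich library and LacZ stressed replicate 4, 12 of the 32 genes were above 0 and 20 below.

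The interaction, the stress difference in KD-labelled mice less that in LacZ mice, had 10 genes above 0 and 22 below, with a median of -0.07, against -0.01 over all tested genes. None of the 32 was at an unadjusted p under 0.05, against 0.355% of all genes, and the values ran from -0.51 ± 0.52 for Slco1a4 to 0.77 ± 0.57 for Tagln. Of the 32, 30 lay within 1 SE of 0.

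**Figure D5:**
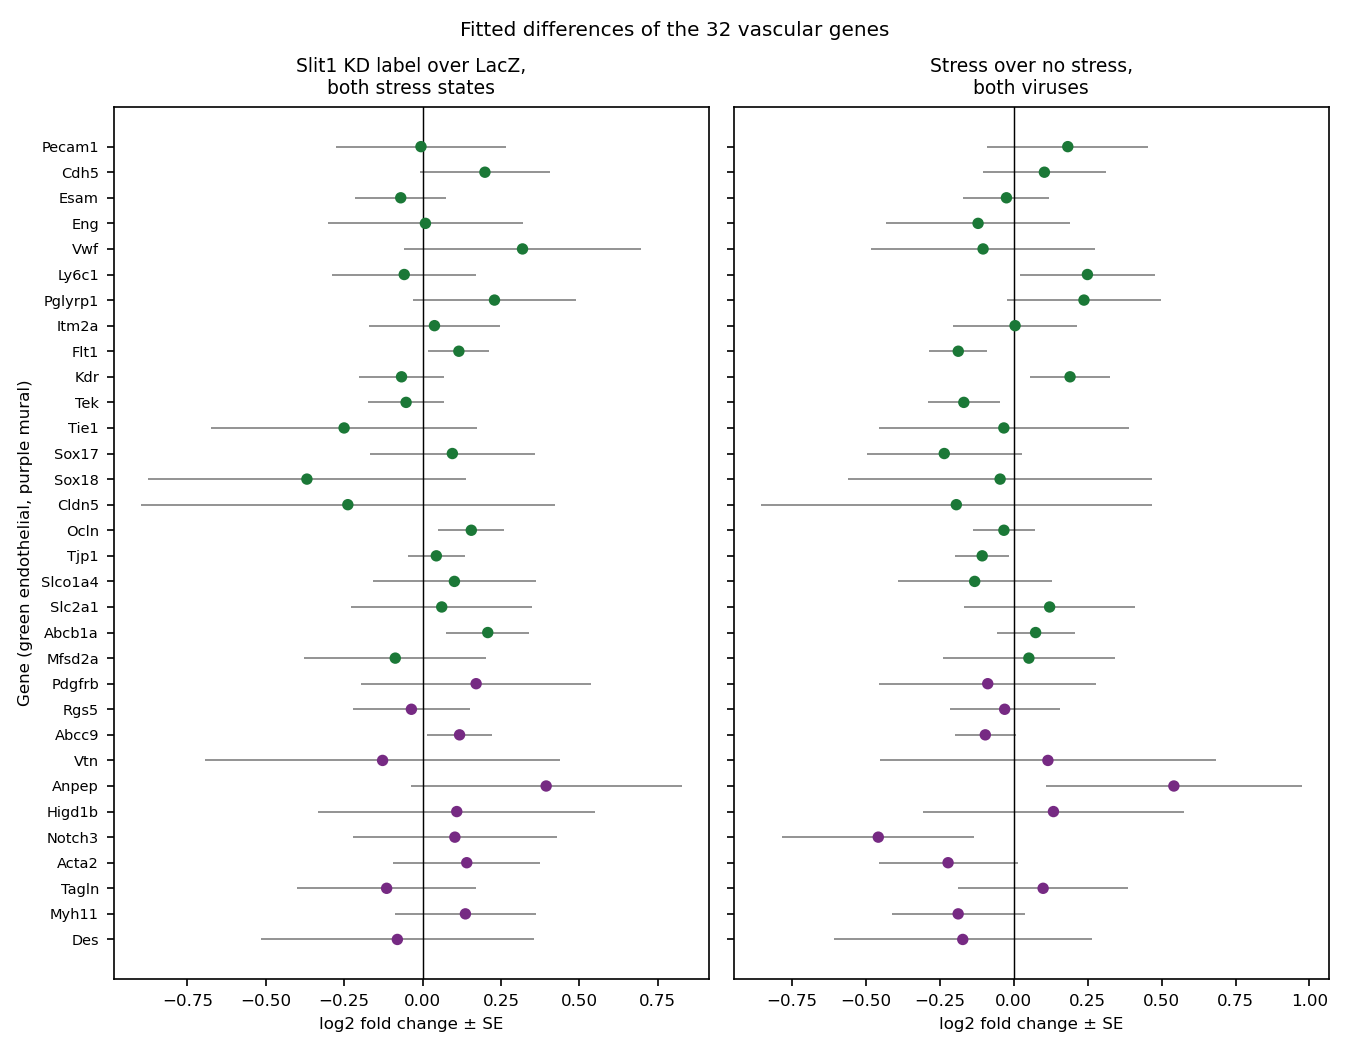
Points are log2 fold changes of the 32 genes with bars of 1 SE, for KD-labelled over LacZ libraries on the left and stressed over unstressed libraries on the right. Cldn5 and Vtn carry SEs of 0.66 and 0.57, while Tjp1 has 0.09 in both panels.

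Standard errors followed each gene's spread over libraries, and shrank when the GC slope entered the fit as a covariate, an alternative chosen after the data were seen. For KD-labelled against LacZ over both states the median SE of the 32 genes was 0.14 with the slope and 0.26 without it, that of Cldn5 0.16 with it and 0.66 without, that of Vtn 0.12 with it and 0.57 without, and that of Rgs5 0.08 with it and 0.19 without. In that fit 5 of the 32 genes were at an unadjusted p under 0.05, where 7.38% of all genes were: Pglyrp1 (0.30 ± 0.11), Vwf (0.34 ± 0.16), Cdh5 (0.27 ± 0.12), Pdgfrb (0.23 ± 0.10) and Ocln (0.14 ± 0.07). For stressed against unstressed over both viruses 3 were, Pglyrp1 (0.29 ± 0.11), Tek (-0.16 ± 0.06) and Notch3 (-0.38 ± 0.16), where 10.2% of all genes were. No adjusted p of a member was below 0.653 in the first or 0.416 in the second, and no gene was called.

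Beyond the 32, 6 further lists of vessel genes held 124 genes, of which 113 were tested and 8 were listed at 0 in every library, among them the angiopoietin Angpt2 and the caveolar protein Cav1. The astrocyte marker Gfap was also at 0 in every library. A 0 in these counts is therefore not read as absence of the transcript, and its cause was not tested. None of the 113 tested genes passed the adjusted threshold in any comparison. For KD-labelled against LacZ over both states, 14 of 23 genes of vascular signalling were above 0, 11 of 16 of the Wnt pathway that builds the barrier, 14 of 21 of barrier transport and matrix, 10 of 16 of endothelial activation, 11 of 17 further endothelial and 15 of 20 further mural genes. Of all tested genes, 44.1% were above 0 there. For stress over both viruses 12 of 23 genes of vascular signalling were above 0, 4 of 16 of the Wnt pathway, 11 of 21 of transport and matrix, 14 of 16 of endothelial activation, 8 of 17 further endothelial and 9 of 20 further mural genes. The endothelial activation genes had a median of 0.17 with stress, against -0.01 over all tested genes. Leukocyte markers were above 0 in that comparison too, in 6 of 6 tested T cell genes (median 0.49) and 5 of 5 tested monocyte and neutrophil genes (median 0.64). So were 8 of 8 fibroblast and meningeal markers (median 0.66), 3 of 3 tested bone markers (median 2.15), 6 of 6 microglial markers (median 0.14) and 5 of 5 perivascular macrophage markers (median 0.22), while 1 of 6 oligodendrocyte markers was (median -0.23). The bone-rich library is a KD-labelled stressed one. For stress in LacZ mice alone, 2 of 3 bone markers (median 0.26) and 7 of 8 fibroblast and meningeal markers (median 0.31) were above 0. In KD-labelled mice the medians were 5.62 for bone markers and 1.00 for fibroblast and meningeal markers. The part of these markers was not tested.

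Genes of these lists are named from the 3 with the smallest p per comparison. For KD-labelled against LacZ without stress they were Ptprb, the endothelial tyrosine phosphatase that acts on Tek (0.29 ± 0.15), Tgfbr2 (0.38 ± 0.22) and the Wnt effector Lef1 (0.41 ± 0.24). With stress they were Aplnr, the apelin receptor (1.17 ± 0.53), Zic1 (1.15 ± 0.68) and the laminin chain Lama4 (0.26 ± 0.16), and over both states Foxd1 (0.76 ± 0.39), Zic1 (0.90 ± 0.48) and the Notch ligand Jag1 (0.23 ± 0.13). Of these only Aplnr was at an unadjusted p under 0.05 in edgeR's test (adjusted p = 1.00). It had 0.59 ± 0.65 CPM in KD-labelled stressed and 0.26 ± 0.10 CPM in LacZ stressed libraries (SD). Stress in LacZ mice gave Apln, the ligand of Aplnr (0.40 ± 0.28), and Tgfbr1 (0.37 ± 0.27). In KD-labelled mice it gave Myocd, a co-activator of smooth muscle genes (-1.07 ± 0.45), and Aplnr (1.11 ± 0.53). Over both viruses Myocd had -0.72 ± 0.32 (adjusted p = 1.00 in edgeR's test), with means of 0.83 ± 0.49 CPM in KD-labelled stressed and 1.04 ± 0.47 CPM in LacZ stressed libraries, against 1.75 ± 0.93 CPM in KD-labelled unstressed and 1.33 ± 0.86 CPM in LacZ unstressed libraries (SD). The interaction gave Ptprb (-0.31 ± 0.21), Aplnr (1.03 ± 0.77) and Foxq1 (-0.45 ± 0.37).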

How the data were processed

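The deposited values were whole counts of fragments per gene in each of 28 libraries, made by the authors with featureCounts 1.6.2 over whole gene spans of the Ensembl 90 annotation of GRCm38, with read pairs counted once, no strand option and duplicates removed, per the file headers. HISAT2, Subread and DESeq2 were also named, per the submitters' processing notes, and no version is given there. Counts over spans include introns, a gene and its antisense partner cannot be told apart, and fragments in overlapping genes were counted for neither.

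Of 52636 identifiers, 52403 matched a symbol. The filterByExpr function kept 19171 genes. TMM library sizes were used, and the robust quasi-likelihood F test of edgeR 4.0.16 (R 4.3.3) was applied to a design whose columns are the 4 groups, without covariates. Benjamini-Hochberg adjustment covered every gene kept, at 0.05. The SE is the absolute log2 fold change over the square root of F. Log2 CPM used a prior count of 2. GC content came from the longest GENCODE transcript, promoters from RefSeq. Permutation tests were two-sided with 100000 resamples. The common biological coefficient of variation was 0.467. The fit was also run on simulated counts, drawn for each gene independently and without the GC slope that the real libraries share. That run therefore does not show how well the fit finds differences in these data. Even the most alike libraries had a chi-square per gene of 11.2, so all were kept. Mice are separate animals, so p-values measure the spread between animals, dissections and libraries together. Lanes were not given in the sources used here.

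Alternatives were RLE factors, DESeq2 1.42.0, no count filter, only the groups compared, the first principal component, the mitochondrial share and mouse numbers above 20 in the titles as covariates, each library left out, for the list means a prior count of 0.5 and the list without overlapping or paralogous members, and, chosen after seeing the data, the GC slope as covariate, relations within the sets of libraries it separates, and leaving out the 2 libraries rich in bone and poor in T cell markers. The members and lists were chosen with earlier results of these data known. The genes named were all 32 members, of the 6 further lists the genes called or else the 3 with the smallest p per comparison, and the 8 genes most like Cldn5, Rgs5 and Acta2. Some genes that this rule picks are not reported here.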

Additional observations from a re-analysis of the deposited data

Results flagged for a closer look

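Kdr in KD-labelled unstressed replicate 7 stood at 11.4 CPM (217 counts), below the 14.4 to 17.1 CPM of the other 6 libraries of its group. On a log scale the gap was 0.568 of the group's range and just passed Dixon's bound. On the CPM values as printed the gap was a smaller part of the range and did not pass. KD-labelled unstressed replicate 7 also had the lowest GC slope, -1.17, and the lowest Cldn5, Vtn, Ly6c1 and Higd1b levels of all 28. Its Kdr level was the 1 value singled out among 128 sets of a gene and a group, and chance alone singles out about 1 in 20.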

How the results depend on the processing

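The count of genes called, 0, and of members called, 0, was the same under every alternative run. The fit of only the 2 groups compared was run for the 4 comparisons between groups, and the libraries left out in turn were those of the groups a comparison uses. Within the 11 libraries of higher and the 17 of lower GC slope, which were cut on that slope and narrow the range, these relations had an adjusted p over 0.05 for r or another sign: in the 11, Rgs5 with Cldn5 (-0.39), Acta2 with Cldn5 (0.24) and with Rgs5 (-0.32), the mitochondrial share with Cldn5 (-0.31) and with Acta2 (-0.25), and the total count with Cldn5 (-0.40), Rgs5 (-0.16) and Acta2 (-0.44). In the 17 they were Acta2 with Cldn5 (0.0099), Rgs5 (0.034), the mitochondrial share (0.023) and the total count (0.31), and the total count with Cldn5 (0.57) and Rgs5 (-0.28). In the 17, rho of the total count with Cldn5 was 0.61 with an adjusted permutation p of 0.0484. With group means and the GC slope removed over all libraries, the gene pairs took the other sign: 0.22 for Cldn5 with Rgs5, -0.13 for Cldn5 with Acta2 and 0.12 for Rgs5 with Acta2. The cause was not tested. Anpep under stress in LacZ mice, 0.67 ± 0.61, ranged from -0.16 without LacZ stressed replicate 2 to 1.00 without LacZ unstressed replicate 4. Uncalled member fold changes changed sign in 519 of 4480 values with 1 library left out and in 183 of 1909 under the other settings, with shifts of up to 1.25 when mouse number was a covariate. No paired analysis was possible because the labels give no replicate numbers, and the numbers used here follow accession order. Depth limits Sox18, Higd1b, Tagln, Des and Cldn5, each with a count of 0 or 1 in some library.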
